A study of Homo sapiens with 18 samples.

Results

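The clustered replication histone genes were described in poly(A) RNA of osteosarcoma (OS) cells under 5 growth conditions. They were all genes of the processed table with the symbol of a replication histone gene of the H1 (H1-1 to H1-6), H2AC, H2BC, H3C or H4C series, pseudogenes left out. These were 66 of the 50119 genes listed, namely 6 H1, 16 H2A, 17 H2B, 13 H3 and 14 H4 genes, of which 55 lie on chromosome 6 and 11 on chromosome 1. The symbols chose them and no measured value did.

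The 18 libraries fell into 6 groups of 3, all of the established human OS line Saos-2 (spelled Soas-2 in the labels), labelled as genotype WT and given no drug or other agent. D-2 was flat culture, D-3 was culture of cells mixed into Matrigel (a basement membrane gel), and DP-3 was tissue bioprinted from cells in methacrylated gelatin and alginate. All of these were sampled on day 14, and DP-3 was also sampled on day 1. FIT was the fresh tumor, taken 2 weeks after female BALB/c nude mice had received the cells in Matrigel under the skin at an age of 4 weeks. IT was pieces of such tumors kept on Matrigel until day 14. Each tumor was split between the fresh and the cultured tissue, so FIT and IT libraries may come from the same mice, which the labels do not tell. Nude mice lack T cells but keep their other host cells, and the labels do not say which libraries came from separate cultures or animals, so a p-value here measures the spread between these libraries.

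Replication histones wrap the DNA that a cell makes in S phase. Most of their mRNAs have no poly(A) tail: they end a few bases past a conserved stem-loop, which the protein SLBP binds, after a cut directed by the U7 snRNP. Some of the genes are also known to give longer transcripts that run past the stem-loop and carry a tail. RNA was purified repeatedly on oligo(dT) for these libraries, so every value below is a level in poly(A) RNA, not the total histone mRNA of a cell.

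The stem-loop is shown first because it is where the tailless form of these mRNAs ends. In GENCODE 29 on GRCh38, 64 of the 66 genes were found, and 32 of them had at least 30 bases annotated after the stop codon. A stem of 6 bases with a loop of 4 of the histone form was present in 27 of these 32, and in 21 an annotated transcript ran at least 50 bases beyond it, by up to 1761 bases. Of 18937 other coding genes, 1.18% held such a match after the stop codon. Below, the capitals mark the 16 bases of the stem-loop, printed as DNA with 5 bases on each side, for genes on which the comparisons turn.
H2BC21: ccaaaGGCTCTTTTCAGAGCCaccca
H2AC6: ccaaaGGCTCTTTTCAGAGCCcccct
H2AC18: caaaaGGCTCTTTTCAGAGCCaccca
H2BC5: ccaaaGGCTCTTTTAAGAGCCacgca
H4C15: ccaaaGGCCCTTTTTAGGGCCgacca
H4C8: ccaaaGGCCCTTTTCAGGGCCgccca
The form of H2BC21, H2AC6 and H2AC18 was the commonest, with 15 genes. H2BC5 shared its stem-loop with 3 others, H4C8 with 3 others and H4C15 with 2 others. Annotated RNA ran 1729 bases past the stem-loop in H2BC21 and 1114 bases in the coding transcript of H2AC6, but only 35 bases in H2AC18. The GENCODE 29 models of H1-2 and H2BC12, the genes of highest level, end at the stop codon, so their stem-loops were not analysed here. The processed table gives these 2 genes spans of 731 and 495 bases, and 27 of the 64 genes had the same ends in both annotations.

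The promoter windows reach from 250 bases before to 50 bases after the RefSeq start (GRCh38.p14), and 61 of the 66 genes had one. The octamer ATTTGCAT, the site of OCT1, was found on either strand in 42.6% of them, against 1.8% of all 27305 promoters of the same length. It was found in 14 of 17 H2B and 11 of 15 H2A windows, in 0 of 6 H1 and 0 of 12 H4 windows. The single H3 window that held it, that of H3C4, is the same stretch as the window of H2AC7, so this octamer was counted again under H3. Windows of head-to-head genes also overlap, so the counts are not of independent sequences. CCAAT was found in 85.2% against 35.7% of all promoters, and TATAAA in 67.2% against 12%. A match is a description of the letters only. In the windows below the capitals mark these motifs on either strand, which may abut. The windows of H2AC6 and H2BC21 are shown because each also holds the start of a neighbor that is read in the opposite direction (H2BC4 and H2AC20), and that of H2BC12 because this gene had the highest level.
H2AC6, chr6:26123922-26124221, plus strand: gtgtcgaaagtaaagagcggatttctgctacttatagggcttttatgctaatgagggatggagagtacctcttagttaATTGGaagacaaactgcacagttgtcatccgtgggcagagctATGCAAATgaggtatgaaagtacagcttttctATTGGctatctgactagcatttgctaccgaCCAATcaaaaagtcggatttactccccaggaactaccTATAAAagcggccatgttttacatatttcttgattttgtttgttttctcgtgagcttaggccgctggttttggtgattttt
H2BC21, chr1:149886633-149886932, minus strand: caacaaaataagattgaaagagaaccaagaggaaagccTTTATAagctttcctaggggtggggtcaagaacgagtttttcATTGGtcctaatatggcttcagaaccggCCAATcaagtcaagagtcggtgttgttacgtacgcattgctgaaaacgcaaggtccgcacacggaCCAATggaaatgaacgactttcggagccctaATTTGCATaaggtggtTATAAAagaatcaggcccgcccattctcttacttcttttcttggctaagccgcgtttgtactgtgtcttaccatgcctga
H2BC12, chr6:27146809-27147108, minus strand: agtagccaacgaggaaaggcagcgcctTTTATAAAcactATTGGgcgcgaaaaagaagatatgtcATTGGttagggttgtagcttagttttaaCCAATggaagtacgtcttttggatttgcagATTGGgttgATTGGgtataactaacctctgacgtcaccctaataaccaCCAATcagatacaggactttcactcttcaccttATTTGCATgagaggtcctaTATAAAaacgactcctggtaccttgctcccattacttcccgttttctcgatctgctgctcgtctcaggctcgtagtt

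The table gives for each gene an FPKM (fragments scaled to gene length and to the mapped total of the library) and an estimated count. Totals of estimated counts lay between 50327345 and 79082786 per library, except 23721666 in FIT replicate 3. A count of 12, about 3 read pairs, was taken as the limit of detection and covers counting error only. Mitochondrial genes held 9.85% to 25.2% of the FPKM of a library, except 34.0% in DP-3 replicate 3. Of the osteoblast markers, RUNX2 was between 0.610 and 2.41 FPKM, but ALPL, the bone alkaline phosphatase for which Saos-2 is known, reached at most 0.148 FPKM, SP7 0.0949 and IBSP 0.0802. The identity of the line was not tested. Summed over 9 skeletal muscle markers, FIT reached 0.923 to 5.55 FPKM and no other library more than 0.637. Over 6 endothelial markers, FIT and IT lay between 3.84 and 6.56 FPKM and the others between 1.17 and 2.35. PECAM1, at 0.792 to 5.01 FPKM, made up most of this sum in every library. Like PECAM1, CDH5 and TEK were highest in an IT library (1.34 and 0.579 FPKM). VWF, KDR and EMCN had their highest values (0.169, 0.0502 and 0.477 FPKM) outside FIT and IT. Over 4 fibroblast markers, FIT lay between 17.3 and 29.2 FPKM, IT between 10.4 and 18.4, D-2, which holds no host cells, between 13.1 and 14.2, DP-3 between 11.7 and 15.0 (8.38 to 8.55 on day 1) and D-3 between 5.77 and 6.14. PDGFRA, at 4.78 to 28.3 FPKM, made up most of this sum in every library, and DCN was at most 0.0858. Over 7 macrophage markers all libraries lay between 25.3 and 120 FPKM, of which CD68 made up 18.6 to 115, while PTPRC, found on all white blood cells, was at most 0.0625. Red blood cell markers summed to at most 0.818 FPKM. The part of host cells in the histone values was not tested.

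Low levels were the rule among these genes in poly(A) RNA. Of the 66 genes, 19 were above the limit of detection in all 18 libraries, 33 in some and 14 in none, and none was at 0 counts everywhere. The median of their mean FPKM over the 18 libraries was 0.396, and 17 genes had a mean of at least 1. In the H3 family, which supplies the main H3.1 and H3.2 proteins, 0 of 13 genes passed the limit in all libraries, against 2 of 6 H1, 4 of 16 H2A, 7 of 17 H2B and 6 of 14 H4 genes. A few genes made up most of the signal. H2BC12 had the highest mean, 29.9 FPKM, followed by the linker histone H1-2 with 22.2, and together with H2AC18, H2BC5 and H2AC19 they held between 58.8% and 72.3% of the summed FPKM of a library.

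Some genes could not be told apart by their reads. H2AC18 and H2AC19 shared 100% and 96.4% of their 150-base windows with each other, H3C14 and H3C15 100%, H4C14 and H4C15 100% and 44.2%, and H4C11 and H4C12 72.8% and 100%. The values of each pair are therefore uncertain as values of one gene, and calls of such a pair are not independent. H2BC5, H2BC15, H2BC18, H3C4, H4C14 and H4C15 are among the genes that also overlap other annotated genes, and whether the authors counted by strand is not given in the sources used here.

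Summed over the 66 genes, D-2 was the lowest and tightest group and D-3 was higher in every library. D-2 had 67.0, 63.7 and 59.7 FPKM in replicates 1 to 3 and D-3 had 200.1, 109.5 and 182.1. The groups did not overlap, and the ratio of their means was 2.58. FIT had 188.9, 89.4 and 103.5 FPKM, above all D-2 libraries but overlapping D-3. DP-3 had 94.8, 110.1 and 101.5 on day 1 and 91.9, 79.3 and 49.6 on day 14. In FPKM every day 14 library was thus below every day 1 library. FPKM is not corrected for composition. The TMM scaling factors, which correct for it, were 0.931, 0.950 and 0.867 on day 14 and 1.098, 1.097 and 1.097 on day 1. This separation is therefore stated for FPKM only. IT had 136.4, 65.4 and 426.3, and replicate 3 alone set its mean: the ratio of IT to FIT was 1.65 with it and 0.793 without it. These sums were given no test. A difference in the share of cells that carry such RNA and a difference in RNA per cell cannot be told apart in these bulk libraries.

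**Figure D1:**
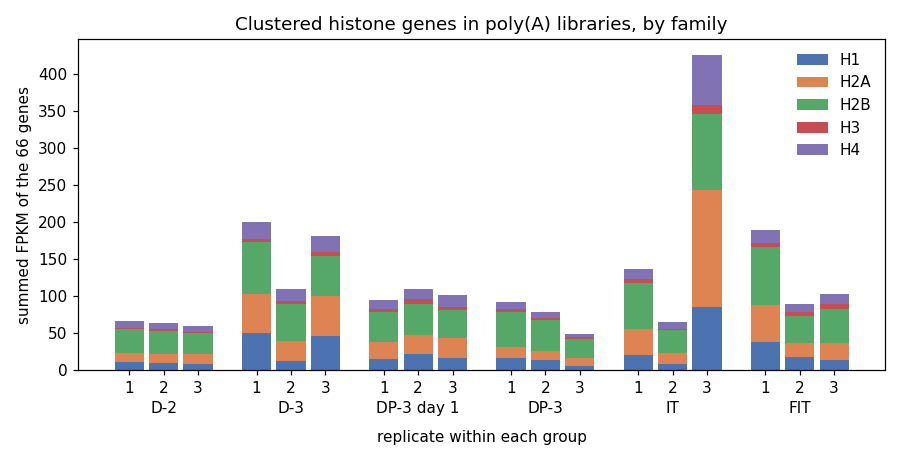
Summed FPKM of the 66 clustered histone genes in each of the 18 libraries, 3 bars per group, with colors for the families H1, H2A, H2B, H3 and H4. D-2 libraries sit between 59.7 and 67.0, D-3 libraries between 109.5 and 200.1, and IT replicate 3 stands apart at 426.3.

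D-3 was compared with D-2 to ask how growth in a gel differs from flat growth. A gene was tested if 3 or more of the 6 libraries reached 0.1 FPKM, and it was called if it changed 2-fold or more and if edgeR's quasi-likelihood test, after Benjamini-Hochberg adjustment over all genes tested, gave a p under 0.05. Of 43 histone genes tested, 15 rose and 1 fell. Of all 20231 genes tested, 14.6% were called higher and 3.95% lower. The share of histone genes called higher was 34.9%. The median log2 fold change was 1.24 over the 43 genes and 0.11 over all genes tested. The other 23 genes did not reach the minimum, and 2 of those tested, H2BC8 and H4C5, reached it in D-3 libraries only and so could hardly have been found lower. Without these 2 genes, 14 of 41 rose (34.1%) and the median was 1.10. In 23 of the 43 every D-3 library lay above every D-2 library, against 38.6% of all genes tested.

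Among the H2B genes, which pair with H2A in the nucleosome, 6 of 12 tested rose. H2BC21 had 0.316, 0.304 and 0.404 FPKM in D-2 and 6.29, 1.57 and 3.46 in D-3. The groups were far apart, with a log2 fold change of 3.20 ± 0.51 (SE, n = 3 per group, edgeR adjusted p = 0.0048). H2BC5 had 3.79, 4.25 and 3.51 FPKM in D-2 and 22.02, 11.2 and 17.7 in D-3. Its log2 fold change was 1.88 ± 0.27 (edgeR adjusted p = 0.0036), from a D-2 mean of 3.85 FPKM, above that of every H2B gene but H2BC12. H2BC7, H2BC18 and H2BC4 rose by 2.69, 2.63 and 1.57 on the log2 scale, H2BC7 from near the limit. H2BC8, which was tested through its D-3 libraries only, gave 3.00, and without it 5 of 11 H2B genes rose. H2BC12, which gave the most signal of all, had 24.3, 23.2 and 22.2 FPKM in D-2 and 33.3, 31.6 and 26.8 in D-3. Its log2 fold change of 0.15 ± 0.15 did not pass (edgeR adjusted p = 0.47), although its D-3 FPKM values all lay above those of D-2.

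Among the H2A genes, 4 of 11 tested rose and 1 fell. H2AC18 had 2.46, 2.17 and 2.62 FPKM in D-2 and 16.05, 7.26 and 20.3 in D-3. All D-3 values were higher, with a log2 fold change of 2.33 ± 0.39 (edgeR adjusted p = 0.0055), and H2AC19, from which it can hardly be told apart, gave 2.31. H2AC6 had 2.33, 2.58 and 2.56 FPKM in D-2 and 15.7, 7.55 and 7.32 in D-3, a log2 fold change of 1.78 ± 0.32 (edgeR adjusted p = 0.0068). H2AC8 rose by 2.60 on the log2 scale, from near the limit, with D-2 counts of 10, 15 and 4. Its call was lost without D-2 replicate 1. H2AC20 went the other way, with 1.11, 1.63 and 1.32 FPKM in D-2 and 0.524, 0.327 and 0.467 in D-3. Its log2 fold change was -1.82 ± 0.43 (edgeR adjusted p = 0.017).

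H4, which pairs with H3, had 4 of 11 tested genes called, all higher. H4C15 had 1.12, 0.692 and 0.915 FPKM in D-2 and 5.51, 4.16 and 5.34 in D-3. The D-3 libraries were all above those of D-2, and the log2 fold change was 2.19 ± 0.25 (edgeR adjusted p = 0.0022). H4C8 had 0.126, 0.426 and 0.252 FPKM in D-2 and 1.99, 1.91 and 1.42 in D-3, a log2 fold change of 2.43 ± 0.45 (edgeR adjusted p = 0.0078). H4C11 and H4C14 rose by 1.74 and 1.52 on the log2 scale, while H4C12, a near copy of H4C11, had 0.29 ± 0.36 (edgeR adjusted p = 0.57). The linker histone H1-2, which binds where DNA enters and leaves the nucleosome, had 10.7, 8.62 and 8.41 FPKM in D-2 and 49.8, 12.8 and 45.1 in D-3. Its log2 fold change was 1.70 ± 0.46 (edgeR adjusted p = 0.027), and D-3 replicate 2 was much nearer to D-2 than the other D-3 libraries. H1-4 overlapped between the groups with a log2 fold change of -0.20 ± 0.61 (edgeR adjusted p = 0.83), and H1-6 was not tested, with at most 0.253 FPKM in any library.

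No H3 gene was called among 7 tested. H3C10 had 0.0681, 0.205 and 0.604 FPKM in D-2 and 1.13, 1.21 and 1.48 in D-3, without overlap, but its log2 fold change of 1.85 ± 0.70 did not pass (edgeR adjusted p = 0.076). H3C2 and H3C3, the next 2 by mean level, overlapped between the groups, with log2 fold changes of -0.04 ± 0.67 and -0.48 ± 0.54.

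**Figure D2:**
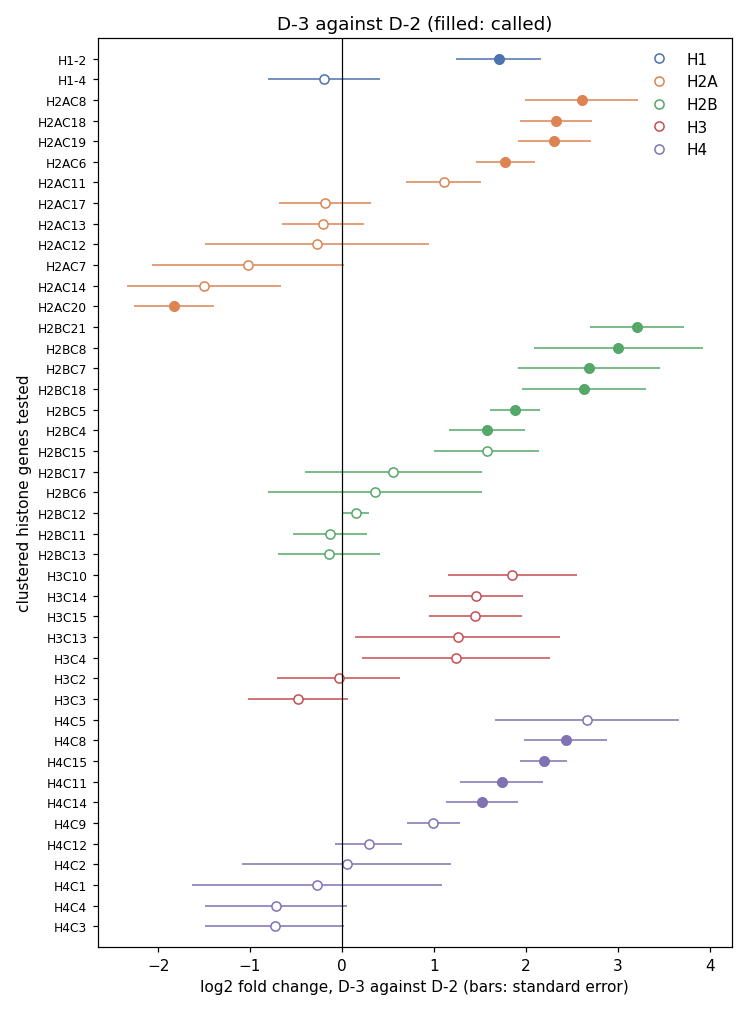
Log2 fold change of each of the 43 tested genes in D-3 against D-2 with its standard error, ordered by family, filled where called. The calls run from -1.82 (H2AC20) to 3.20 (H2BC21), and no H3 gene is filled.

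Of the 16 calls, 7 held in all 6 fits with a library left out (H2AC18, H2AC19, H2AC6, H2BC21, H2BC5, H4C15 and H4C8). Without D-2 replicate 1 or without D-3 replicate 1, 10 genes were called in place of 16, and H1-2 passed in only 1 of the 6 fits. DESeq2 called 22 and limma on log2(FPKM + 0.1) 23 of the 43.

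**Figure D3:**
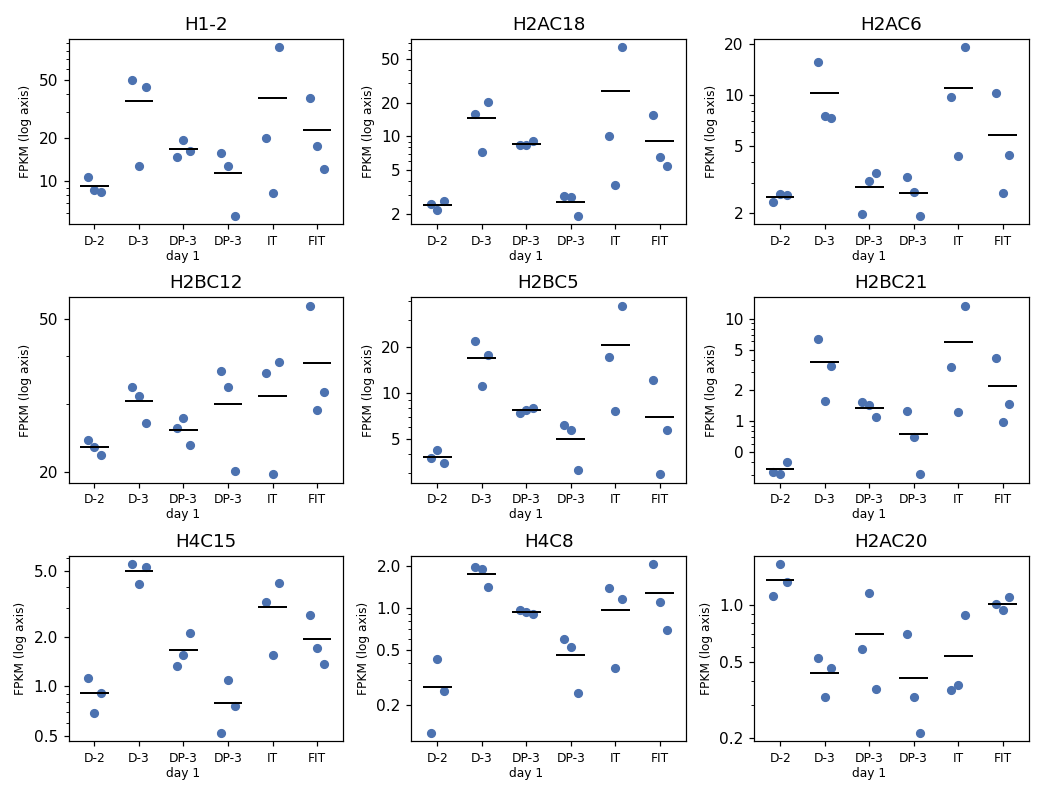
FPKM in each library (points, log axis) and group mean (bar) for 9 genes in the 6 groups. H2BC21 runs from 0.304 in D-2 and DP-3 to 13.4 in IT replicate 3, H2BC12 stays between 19.8 and 54.2 in all libraries, and H2AC20 is the only 1 of the 9 with its highest value in D-2.

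The genes differed by the length that the annotation gives them. Of the 66 genes, 23 spanned at least 1000 bases (1196 to 29685), through a longer 3' end or a distant exon, and 43 spanned 386 to 797 bases. Of the long genes 19 were tested in D-3 against D-2, 10 were called higher and 18 had a log2 fold change above 0, with a median of 1.78 (9 of 17 called higher and a median of 1.57 without H2BC8 and H4C5). Of the compact genes 24 were tested, 5 were called higher and 1 lower, 11 had a value above 0 and the median was -0.09. The 5 compact genes that rose were H1-2, H2AC8, H2AC18, H2AC19 and H4C11. The length of 1000 bases was chosen after the values were seen and the difference between the classes was not tested.

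**Figure D4:**
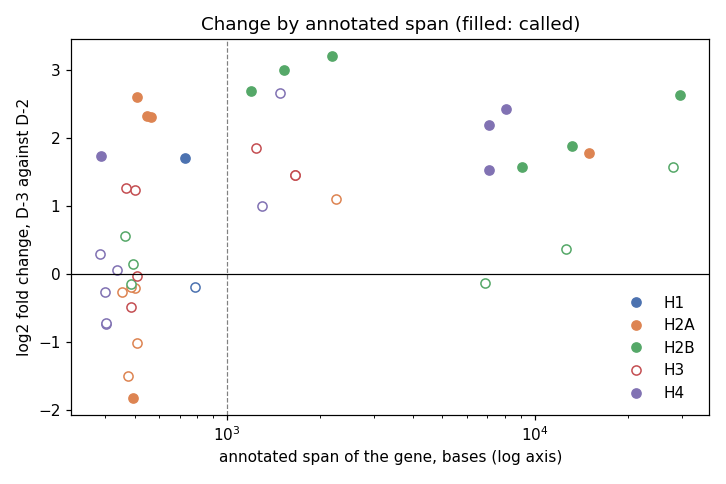
Annotated span of each tested gene in bases (log axis) against its log2 fold change in D-3 against D-2, filled where called, with a dashed line at 1000 bases. Left of the line values lie on both sides of 0, and right of it 18 of 19 lie above 0.

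Several of the genes sit head to head, an H2A gene beside an H2B gene that is read in the opposite direction, and 10 such pairs had 214 to 291 bases between them. In 8 pairs both genes were tested in D-3 against D-2. H2BC4 and H2AC6 were both called higher. H2BC8 and H2AC8 were too, but H2BC8 was tested through its D-3 libraries only and H2AC8 was near the limit in D-2. H2BC21 and H2AC20, whose windows overlap as printed above, were both called in opposite directions (3.20 and -1.82, H2AC20 near the limit in D-3). In 5 of the 8 pairs, this one included, the fold changes differed in sign. In the rest of these 5 only H2BC7 was called, so most of their signs are uncertain. H2BC12 and H2AC12, for example, had 0.15 ± 0.15 and -0.27 ± 1.22. In D-3 against D-2, 7 of 17 tested genes with an octamer in the window and 8 of 23 without it were called higher.

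Lists of genes for DNA replication and histone supply were also read in D-3 against D-2. Of 28 DNA replication and proliferation genes, 17 fell and 0 rose in D-3 against D-2, with a median log2 fold change of -1.13. PCNA, the sliding clamp of DNA polymerase, had 152, 128 and 119 FPKM in D-2 and 39.7, 91.5 and 54.9 in D-3, a log2 fold change of -1.35 ± 0.29 (edgeR adjusted p = 0.012). FEN1 and TK1 fell by 1.49 and 1.29 on the log2 scale. Of 18 histone chaperones, which carry histones to DNA, 5 fell and 0 rose: CHAF1A and CHAF1B of the replication chaperone CAF-1, ASF1A, HIRA and ANP32E, by 1.05 to 1.18 on the log2 scale. Of 27 genes of histone mRNA processing and cell cycle-linked transcription, 2 fell (CCNE1 and DHX9) and 0 rose. SLBP itself, named here after its values were seen, had 34.1, 35.8 and 30.6 FPKM in D-2 and 25.9, 30.2 and 26.2 in D-3, a log2 fold change of -0.54 ± 0.12 that was below the 2-fold minimum (edgeR adjusted p = 0.013).

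The listed histone genes outside the clusters did not follow 1 direction. Whether all of their mRNAs carry a tail was not examined here, and their values too are levels in poly(A) RNA. Of 12 such genes 2 fell in D-3 against D-2, H2AZ1 and H2AX, by 1.25 and 1.35 on the log2 scale, and 0 rose. H1-10, a linker histone, had 60.6 to 67.0 FPKM in D-2 and 73.7 to 139 in D-3, without overlap, and did not pass (0.57 ± 0.22, edgeR adjusted p = 0.081).

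**Figure D5:**
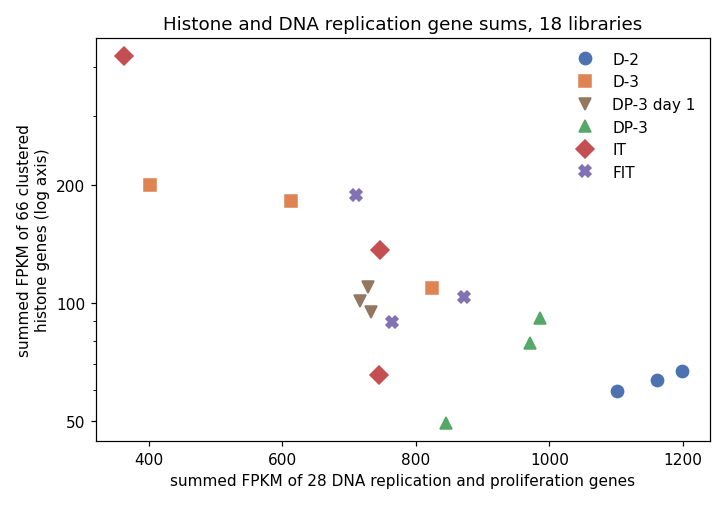
Summed FPKM of the 28 DNA replication and proliferation genes (x axis) against summed FPKM of the 66 clustered histone genes (y axis, log) in the 18 libraries, with a symbol for each group. IT replicate 3 lies at 363 and 426.3 and D-2 libraries at 1102 to 1198 and 59.7 to 67.0.

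Against FIT, the D-2 group was low. Of 43 genes tested 5 fell and 0 rose, which is 11.6% lower, while 10.8% of all 19513 genes tested were called lower and 3.83% higher, so the count of calls was near the background. The median log2 fold change was -0.96 over the 43 genes and -0.09 over all genes, and 6 of the 43 had a value above 0, against 45.9% of all genes. H4C5, 1 of the 43, reached the 0.1 FPKM minimum in FIT libraries only and so could hardly have been found higher in D-2. The calls were H3C4, H2BC21, H4C8, H2AC18 and H2AC19. H3C4 had 0.0041, 0.138 and 0.172 FPKM in D-2 and 1.06, 0.957 and 0.941 in FIT, a log2 fold change of -2.86 ± 0.76 (edgeR adjusted p = 0.027). Its D-2 counts of 1, 7 and 9 were all below the limit of 12, so the size of this change is uncertain. H2BC21 had 4.10, 0.973 and 1.47 FPKM in FIT, all above D-2, with -2.50 ± 0.55 (edgeR adjusted p = 0.015). H4C8 had 2.07, 1.10 and 0.695 FPKM in FIT, with -2.08 ± 0.56 (edgeR adjusted p = 0.030). H2AC18 had 15.5, 6.50 and 5.42 FPKM in FIT, with -1.75 ± 0.43 (edgeR adjusted p = 0.021). None of the 5 held in every fit with a library left out: leaving out D-2 replicate 1 or 2 left 1 call, leaving out D-2 replicate 3 left 3, leaving out FIT replicate 1 left 3 as well, and leaving out FIT replicate 3, the shallow library, gave 8. Over DNA replication and proliferation genes, 3 of 28 rose in D-2 against FIT (CCNB1, RRM2 and CCNA2, by 1.33, 1.27 and 1.14 on the log2 scale) and 0 fell.

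Against FIT, D-3 differed in 1 of 42 genes tested, which was H4C15, while 4.29% of all 21676 genes were called higher. H2BC8, 1 of the 42, was tested through its D-3 libraries only and was not called. H4C15 had 2.72, 1.71 and 1.37 FPKM in FIT, all below the D-3 values, and a log2 fold change of 1.31 ± 0.33 (edgeR adjusted p = 0.049). The call was lost whichever of the 6 libraries was left out, with adjusted p between 0.053 and 0.17. H2BC5 and H1-2 overlapped between D-3 and FIT, with log2 fold changes of 1.23 ± 0.49 and 0.62 ± 0.55.

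DP-3 had 0 calls by edgeR among 43 genes against FIT, where 4.82% of all 20039 genes were called in either direction. The unadjusted p was below 0.05 for 9 genes, all lower in DP-3, against 27.6% of all genes tested in either direction. DESeq2 called 5 and limma 2. Of the 43 fold changes 4 were above 0, with a median of -0.86, while 46.4% of all genes were above 0, with a median of -0.06. H2AC18 was nearest, with 2.90, 2.85 and 1.94 FPKM in DP-3, all below FIT, and a log2 fold change of -1.69 ± 0.45 (edgeR adjusted p = 0.054). Without FIT replicate 3, the shallow library, 2 genes were called. Against D-2, where 1.04% of all 18549 genes were called, DP-3 again had 0 calls among 43 genes. The unadjusted p was below 0.05 for 3 genes (22.7% of all genes), and DESeq2 called 1 and limma 0. H4C5, 1 of these 3, was tested through its DP-3 libraries only and so could hardly have been found lower. H2BC21 had 1.26, 0.696 and 0.304 FPKM in DP-3 and overlapped D-2. Its log2 fold change was 1.09 ± 0.49 (edgeR adjusted p = 0.24), so in this gene a change of about 2-fold did not pass. The spread differed by gene: H2BC12 had 0.34 ± 0.21 and H2AC18 0.05 ± 0.27. The median over the 43 genes was 0.06. All of the comparisons with FIT share its 3 libraries and those with D-2 share its 3.

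Within the bioprinted tissue, 4 of 47 genes fell from day 1 to day 14 and 0 rose, while 5.76% of all 20774 genes were called lower and 8.51% of the histone genes were. H2AC18 had 8.45, 8.32 and 9.11 FPKM on day 1 and fell to the values above, with a log2 fold change of -1.49 ± 0.24 (edgeR adjusted p = 0.0069), and H2AC19 gave -1.47. Both held in all 6 fits with a library left out. H3C10 had 1.43, 1.83 and 1.03 FPKM on day 1 and 0.492, 0.492 and 0.547 on day 14, with -1.20 ± 0.34 (edgeR adjusted p = 0.046). H2BC15 fell by 1.08 on the log2 scale. H3C10 was lost in all 6 such fits and H2BC15 in 5, and without any 1 of the day 1 libraries 2 genes were called. One fit of all 18 libraries called 0. H2BC12 had 26.1, 27.7 and 23.5 FPKM on day 1 and 36.8, 33.3 and 20.1 on day 14, with overlap (0.48 ± 0.21, edgeR adjusted p = 0.15).

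IT had 0 calls by edgeR among 43 genes against FIT, and 0% of all 21183 genes were called. The unadjusted p was below 0.05 for 1 gene (12.7% of all genes), and DESeq2 and limma called 0. IT replicate 3 stood apart in several genes of high level. H2AC18 had 10.1, 3.69 and 63.5 FPKM in IT, H1-2 19.9, 8.25 and 84.4, and H4C11 1.55, 2.46 and 22.2. Replicate 3 was above every other library of the series in these 3 genes, and IT replicates 1 and 2 lay within or below the range of FIT. H2BC12, with 36.3, 19.8 and 38.6 FPKM in IT and 54.2, 28.9 and 32.3 in FIT, did not set replicate 3 apart. IT replicate 3 also had the lowest sum of DNA replication and proliferation genes, 363 FPKM against 402.6 to 1198 in the other libraries.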

How the data were processed

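Poly(A) RNA of 18 libraries was sequenced in read pairs by the authors. Per the labels, reads were trimmed with cutadapt 1.9, aligned with HISAT2 2.0.4 and assembled with StringTie 1.3.4d. The genome build and annotation are not given in the sources used here. The deposited FPKM are the authors' StringTie values, and the deposited estimated counts are whole numbers that follow coverage, made by the authors in a way that is not stated. Dividing by library total and length, as FPKM does, leaves composition uncorrected, so tests used the estimated counts with TMM scaling.

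Each of 7 comparisons was fitted with edgeR 4.0.16 (glmQLFit, glmQLFTest, R 4.3.3) on its own 6 libraries keeping genes that reached 0.1 FPKM in 3 or more of them, and p-values were adjusted by Benjamini-Hochberg over all genes kept. Standard errors were obtained as the size of the log2 fold change over the root of F. An exact permutation test of 3 against 3 has a smallest p of 0.1, so overlap was given in its place. The code was tested on simulated data. Alternatives were DESeq2 1.42.0, limma 3.58.1, other filters and scaling, a replicate block and each library left out. The genes and lists were chosen with earlier results of these data known. Genes named were the 3 of highest mean FPKM per family, up to 3 called genes per direction and comparison with the largest change (above 12 counts in at least 3 libraries), and from each list the 3 of highest mean FPKM or calls of 5 or fewer. Other genes were named after their values were seen, as were the span limit, the head-to-head pairs and the windows printed. No 2 libraries of a group had counts within sampling noise. Tables and figures were made with Python 3.11.15, pandas 2.3.3 and matplotlib 3.10.9.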

Additional observations from a re-analysis of the deposited data

Results flagged for a closer look

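For 3 genes, picked by this pattern, every library of some cultures lay above every FIT library while every library of other cultures lay below it. The difference between the cultures was not tested in this form. Full separation from FIT was common among all genes tested: 18.9% lay above and 31.0% below it for D-2. These shares were 20.5% and 11.9% for D-3, 12.5% and 21.6% for DP-3, and 11.1% and 9.49% for IT. How many of all genes separated in opposite directions was not counted, so the 3 genes have no background. H2AC20 was also near the limit, with DP-3 counts of 31, 16 and 8. H4C15 had a mean of 5.0 FPKM in D-3, above FIT, and of 0.91 in D-2 and 0.792 in DP-3, below FIT. Its near copy H4C14, with which it shares reads, had 2.87 FPKM in D-3, above FIT, and 0.832 in D-2 and 0.738 in DP-3, below FIT. H2AC20 ran the other way, with a mean of 1.36 FPKM in D-2, above FIT, and means below FIT of 0.416 in DP-3, 0.44 in D-3 and 0.541 in IT.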

How the results depend on the processing

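Median-of-ratios scaling changed no count of called genes by over 1.5 times. In D-2 against FIT, with 5 calls, DESeq2 gave 10, limma on log2(FPKM + 0.1) 9 and the replicate block 3, and fits without 1 library gave 1 to 8. In D-3 against FIT, with 1 call, DESeq2 gave 2, the replicate block 0 and fits without 1 library 0. In DP-3 against FIT, with 0 calls, DESeq2 gave 5, no filter 3, an FPKM minimum of 1, limma and one fit of all 18 libraries 2 each, and fits without 1 library 0 to 2. In DP-3 against DP-3 day 1, with 4 calls, no filter gave 2, the replicate block 2, one fit of all 18 libraries 0 and fits without 1 library 2 to 3. In D-3 against D-2, with 16 calls, fits without 1 library gave 10 to 16, and one fit of all 18 libraries gave 11. In DP-3 against D-2, with 0 calls, DESeq2 gave 1. The cause of these changes was not tested. Of 1258 alternative values of the named genes, none of a called gene changed sign, 51 lost a call and 23 gained one.

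The ratio of summed levels moved by more than the spread between libraries in 3 cases. Without H2BC12 it was 3.31 in place of 2.58 in D-3 against D-2 and 0.57 in place of 0.72 in DP-3 against DP-3 day 1. In IT against FIT it was 1.65, and fits without 1 library gave 0.793 to 2.21. Replicate numbers were not treated as a pairing: the labels do not say what they mark, also not whether same-numbered FIT and IT libraries share a tumor, and the deviations of same-numbered libraries correlated between -0.0336 and 0.0409, over 0.1 in 0 of 21 pairs. With the replicate block IT against FIT had 0 calls, as without it. At the totals reached, 12 counts were 0.152 to 0.506 CPM, and 14 of the 66 genes never passed this limit.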

Other observations

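In 3 of the 6 groups (D-3, IT and FIT) the library with the highest sum of clustered histone genes had the lowest sum of DNA replication and proliferation genes within its group. In D-3 the histone sums of 200.1, 109.5 and 182.1 FPKM stood beside replication sums of 402.6, 823.7 and 612.4. In IT the histone sums of 136.4, 65.4 and 426.3 stood beside 745.9, 745.5 and 362.6, and in FIT 188.9, 89.4 and 103.5 beside 710.7, 764.7 and 872.9. In D-2 and DP-3 the library with the highest histone sum also had the highest replication sum. With 3 libraries in a group no relation was tested.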
